A study of Arabidopsis thaliana with 12 samples.

Results

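The comparison of 100 with 0 µM cycloheximide (CHX) asked how the mRNA of whole Arabidopsis seedlings differs after 2 h with and without a high dose of an inhibitor of protein synthesis. It used the 3 libraries labelled CHX 100 µM and the 3 labelled CHX 0 µM, 6 of the 12 libraries of the series, and all 12905 genes of the deposited count table. The libraries were taken by their labelled dose, and no measured value entered the choice. All seedlings were wild type of the accession Col-0, 2 weeks old, raised on half-strength MS medium with sucrose, rested in water and then held for 2 h under light of 30 µE in a solution with or without CHX. Neither group carried a mutation or transgene, and the remaining libraries, at 1 and 10 µM, differed from these in dose alone. mRNA was measured by bulk MARS-seq, which reads the 3′ ends of polyadenylated transcripts.

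CHX binds the large subunit of cytosolic ribosomes and stops their movement along the mRNA, while the ribosomes of chloroplasts and mitochondria are not its target. In plants, as in other eukaryotes, many short-lived transcripts of early response genes are known to accumulate when protein synthesis is blocked. Such genes often encode receptors, kinases, ubiquitin ligases and transcription factors that act at the start of a stress response.

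Total counts of the 0 µM libraries ranged from 1073063 to 2036594 and those of the 100 µM libraries from 1641387 to 2836374, and reads copied by PCR are included in them. Transcript levels are in CPM, the counts brought to 1 shared library total after TMM correction (a trimmed mean of log ratios between libraries), with the replicates 1 to 3 of a dose in that order. The labels do not say that the replicates came from separate cultures, so p-values cover the spread among these samples alone, which may be technical. The 8 leaf markers, for photosynthesis proteins, were all measured and summed to 20819 to 22468 CPM at 0 µM and 9896 to 11083 CPM at 100 µM. Of 10 root markers 8 were measured, and they summed to 385 to 411 CPM and 62.0 to 70.7 CPM. In bulk samples fewer cells of a type and less RNA per cell cannot be told apart, and the part of leaf or root content in the results below was not tested. Among called genes, replicates 1, 2 and 3 at 100 µM were more than 2-fold above both other libraries of that dose in 334, 126 and 85 genes and more than 2-fold below both in 237, 121 and 251. The counting strand is not given in the sources used here, so reads of a gene and of an annotated gene overlapping it on the opposite strand cannot be told apart. Of the genes given below with values, such an overlap also touches AS1, AT3G01830, BCAT-2, BOA, CASP1, DIN10, F3H, FBR12, FER1, FKF1, MAPKKK19, MPK3, MYB73, MYC2, NAC1, NOP56, NUC-L1, PEPR2, PRK, TT4, TUB7 and UGT73C6, beside those where it is stated.

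Calls required an adjusted p (Benjamini-Hochberg) under 0.05 in edgeR's quasi-likelihood test together with a change of at least 2-fold. Of 12905 genes 4999 (38.7%) were called, 3072 (23.8%) higher and 1927 (14.9%) lower at 100 µM. The doses did not overlap in any library for 6948 genes (53.8%). Over 16-fold, 945 genes were called higher and 55 lower. A gene scarce at 0 µM can be in the table through another dose alone. These numbers therefore do not compare the sizes of rises and falls. Of the genes called higher, 545 had 3 or fewer counts over the 0 µM libraries. Of those called lower, 155 had 3 or fewer over the 100 µM libraries. The median log2 change of all genes was 0.02, but −1.01 with total count scaling and 0.77 with scaling to 10 reference genes, which split the calls into 1846 higher and 5634 lower or 4739 higher and 589 lower. All directions are therefore relative to the median gene. Of the reference genes, GAPC2 and ACT8 were themselves called lower (log2 changes of −1.25 ± 0.19 and −2.69 ± 0.54, SE). The GAPC2 call was lost at −0.56 under reference-gene scaling. The change of ACT8 was −1.86 with 0 µM replicate 1 left out and −3.28 with 100 µM replicate 1 left out.

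The abundant mRNAs of the seedlings differed between the doses. The lists of the 100 most abundant genes at the 2 doses shared 13 genes. Of the top 100 at 0 µM, 53 were called lower and 6 higher, and of the top 100 at 100 µM 93 were called higher and 0 lower. The counts also gathered in fewer genes, since 352 to 379 genes held 50% of the counts at 0 µM and 159 to 172 did at 100 µM. Of the 96 genes above 1000 CPM at 0 µM 54.2% were called lower and 6.25% higher. Every gene in the table had at least 6 counts in 1 of the 12 libraries, so a gene scarce at 0 µM can be in the table because it is high at another dose, and shares called among scarce genes are not given for that reason.

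**Figure D1:**
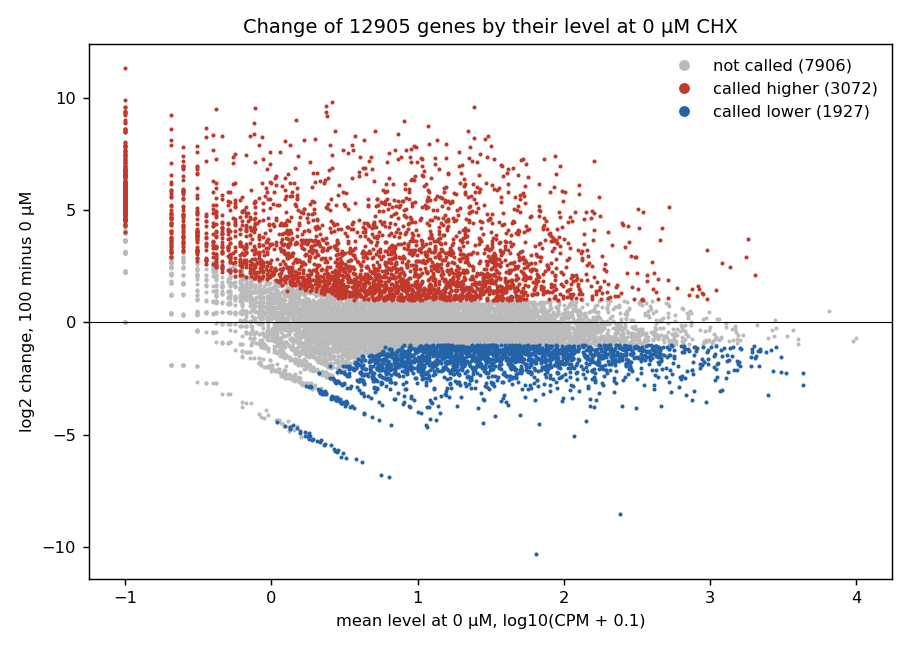
Log2 change of each of 12905 genes between 100 and 0 µM CHX (vertical axis) against its mean level at 0 µM as log10(CPM + 0.1) (horizontal axis), with 1 point per gene and colour for genes called higher, lower or not called. Rises reach above 9 on the log2 scale, and 54.2% of the genes above 1000 CPM are called lower. Genes at the left had to reach 6 counts in some library to be listed. Fitted changes of genes with 0 counts at a dose, at the left edge, depend on the prior count.

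Genes with a simple structure were called higher more often. Among protein-coding genes, 38.4% of the 2103 with 1 exon were called higher, against 14.9% of the 1938 with over 10 exons. The shares called lower in the same classes were 18.0% and 6.91%, and the share with 1 exon was 26.9% among genes called higher, 20.0% among those called lower and 11.9% among the rest. The median coding length was 1116 bases for genes called higher and 972 for those called lower, against 1155 for all. These shares also include scarce genes that can be in the table through another dose, and the effect of this was not tested.

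The 300 bases upstream of the annotated start were searched on both strands for short motifs, with RefSeq gene models of TAIR10.1. W-boxes (TTGACC and TTGACT) are the sites of WRKY factors, and CGCGTT and CGCGTG are sites of CAMTA factors, which bind calmodulin. TTGACT was found in 30.0% of the windows of genes called higher, 18.2% of those called lower and 22.3% of all 12588 windows. For CGCGTT the shares were 7.70%, 1.59% and 3.69%, and for CGCGTG 5.80%, 1.96% and 3.84%. In contrast, TGGGCC, found upstream of many genes of growing cells, was in 11.2% of windows of genes called higher and 16.7% of all. It was in 18.4% of windows of genes called lower and likewise in 18.4% of those not called. The ethylene-type box GCCGCC was in 2.23%, 2.59% and 2.39%. The share of genes called higher was 20.2% with no W-box match, 28.0% with 1, 37.4% with 2 and 52.8% with 3 or more (n = 8434, 3072, 870 and 212). With no CAMTA-type match it was 22.6%, with 1 37.7%, with 2 50.3% and with 3 or more 65.5% (n = 11737, 637, 185 and 29). A match is a description of the sequence and not a bound site.

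**Figure D2:**
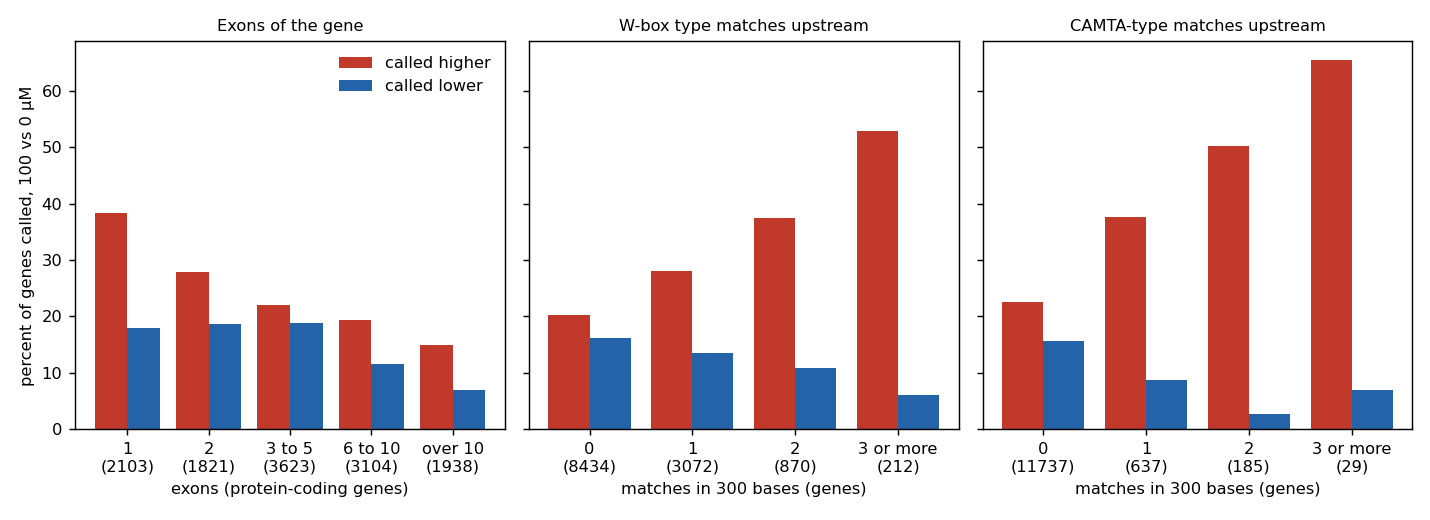
Percent of genes called higher or lower at 100 against 0 µM CHX (vertical axis) in classes by exon number (left), by W-box matches (middle) and by CAMTA-type matches (right) in the 300 bases upstream, with the number of genes under each class. The share called higher falls from 38.4% to 14.9% with exon number and rises to 52.8% and 65.5% with motif matches, and the last class holds 29 genes. Genes scarce at 0 µM can be in the table through another dose.

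The upstream stretches of 5 genes that rose and 1 that fell, chosen by hand, are shown to set these motifs beside the values below. All 5 that rose hold a match, which is not typical. Of 2999 windows of genes called higher, 1702 had no W-box match and 2647 no CAMTA-type match. Among 1891 windows of genes called lower these numbers were 1367 and 1828. The stretches run 5′ to 3′ on the strand of the gene, with W-box and CAMTA-type matches on either strand in capitals. They lie at chr1:6627689-6627988 (minus strand), chr5:7410103-7410402 (minus), chr4:12686159-12686458 (plus), chr1:27483940-27484239 (plus), chr5:25721433-25721732 (plus) and chr2:15614917-15615216 (minus) of TAIR10.1.
AT1G19210: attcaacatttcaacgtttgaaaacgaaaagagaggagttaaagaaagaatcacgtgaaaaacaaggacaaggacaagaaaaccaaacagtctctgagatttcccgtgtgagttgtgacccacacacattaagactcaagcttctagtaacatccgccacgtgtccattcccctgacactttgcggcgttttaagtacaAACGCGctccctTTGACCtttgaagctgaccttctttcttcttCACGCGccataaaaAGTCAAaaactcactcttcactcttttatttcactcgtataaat
NAC090: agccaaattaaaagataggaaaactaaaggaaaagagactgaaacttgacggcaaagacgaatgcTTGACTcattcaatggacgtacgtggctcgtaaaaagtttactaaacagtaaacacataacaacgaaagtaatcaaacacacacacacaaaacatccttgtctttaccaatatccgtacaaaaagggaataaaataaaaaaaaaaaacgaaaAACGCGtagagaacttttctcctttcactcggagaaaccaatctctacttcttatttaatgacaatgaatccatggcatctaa
DIC2: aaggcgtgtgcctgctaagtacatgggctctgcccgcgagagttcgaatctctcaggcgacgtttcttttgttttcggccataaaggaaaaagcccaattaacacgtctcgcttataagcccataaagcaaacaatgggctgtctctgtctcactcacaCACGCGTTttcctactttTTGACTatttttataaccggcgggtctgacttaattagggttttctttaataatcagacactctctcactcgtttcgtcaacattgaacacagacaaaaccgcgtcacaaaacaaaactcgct
PEPR1: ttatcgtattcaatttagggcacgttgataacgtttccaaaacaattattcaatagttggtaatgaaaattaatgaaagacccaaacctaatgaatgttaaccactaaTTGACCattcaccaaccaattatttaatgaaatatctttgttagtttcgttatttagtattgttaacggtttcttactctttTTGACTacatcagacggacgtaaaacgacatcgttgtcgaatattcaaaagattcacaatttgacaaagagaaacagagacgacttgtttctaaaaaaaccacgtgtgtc
AGP1: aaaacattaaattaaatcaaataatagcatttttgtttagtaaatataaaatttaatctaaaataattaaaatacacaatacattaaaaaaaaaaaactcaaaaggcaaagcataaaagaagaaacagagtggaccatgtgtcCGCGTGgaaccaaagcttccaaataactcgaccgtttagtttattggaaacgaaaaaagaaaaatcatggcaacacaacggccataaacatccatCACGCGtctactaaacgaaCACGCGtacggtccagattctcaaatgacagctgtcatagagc
PIP2B: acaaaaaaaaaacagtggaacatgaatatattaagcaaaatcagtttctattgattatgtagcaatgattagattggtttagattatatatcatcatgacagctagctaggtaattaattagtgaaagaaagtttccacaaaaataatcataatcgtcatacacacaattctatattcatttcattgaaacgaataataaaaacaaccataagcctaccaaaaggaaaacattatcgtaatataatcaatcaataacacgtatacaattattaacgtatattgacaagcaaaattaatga

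AT1G19210, an AP2/ERF gene with 2 W-box and 2 CAMTA-type matches, had 0, 0 and 0 CPM at 0 µM and 137, 125 and 143 CPM at 100 µM. It was not detected in any 0 µM library and was at least 312-fold higher at 100 µM, computed at a floor of 3 counts over the 0 µM group. NAC090, a NAC transcription factor gene with 1 match of each kind, was measured at 0.953, 0.627 and 0.447 CPM at 0 µM and 653, 462 and 634 CPM at 100 µM. The doses did not overlap, and its log2 change was 9.57 ± 0.36 (SE, adjusted p = 5.11e-15). DIC2, a mitochondrial dicarboxylate carrier with 1 W-box and 2 overlapping CAMTA-type matches, stood at 21.9, 27.6 and 37.1 CPM at 0 µM and 7169, 8551 and 9146 CPM at 100 µM, a change of 8.17 ± 0.27 (SE, adjusted p = 1.52e-15). AGP1, an arabinogalactan protein of the cell surface with 3 CAMTA-type matches and no W-box, showed 72.1, 97.2 and 111 CPM at 0 µM and 10628, 12246 and 12004 CPM at 100 µM. Its change was 6.96 ± 0.29 (SE, adjusted p = 1.55e-14), and it was among the 10 genes with the most counts at 100 µM. The aquaporin gene PIP2B, whose stretch held neither motif, fell and is described with its family.

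**Figure D3:**
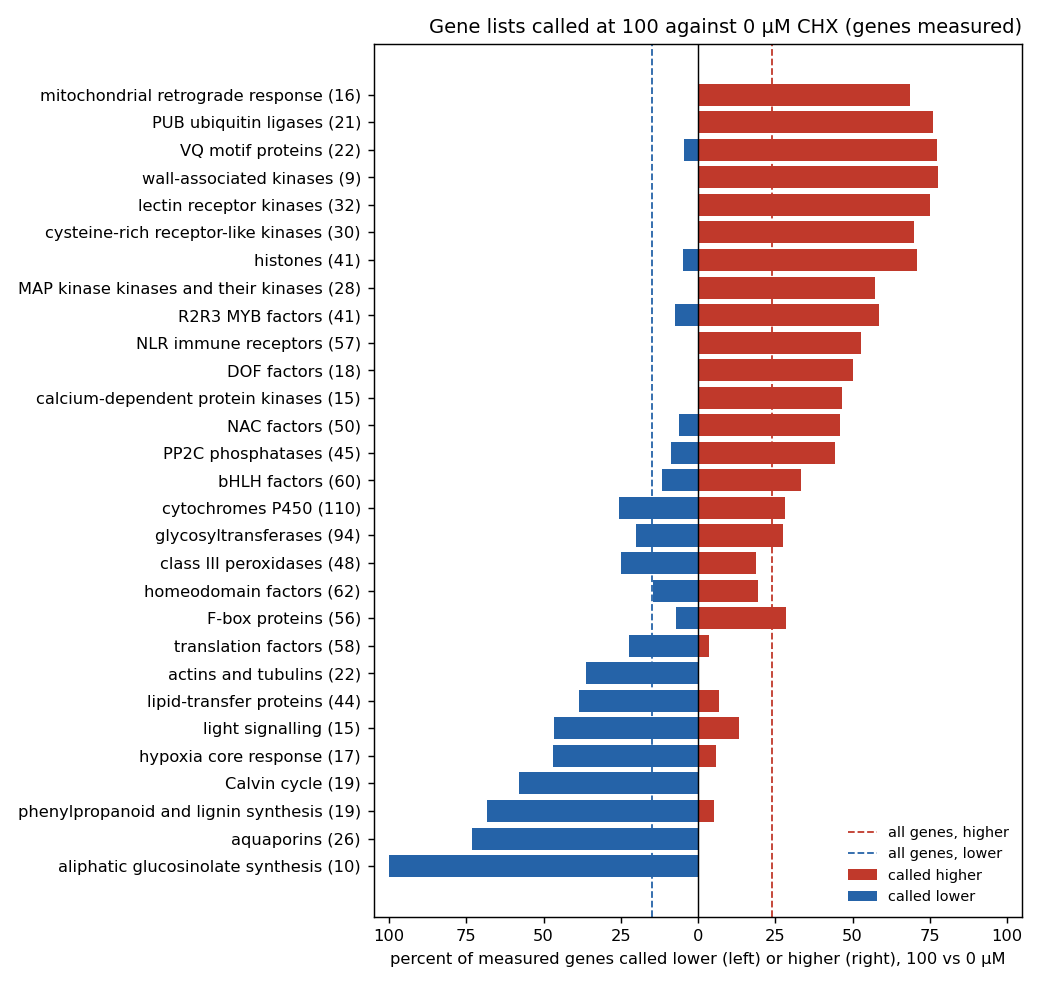
Percent of the measured genes of 29 gene lists called lower (left, blue) or higher (right, red) at 100 against 0 µM CHX, with the number measured in parentheses and dashed lines at the shares of all genes, 14.9% lower and 23.8% higher. The lists drawn were chosen by hand. Receptor, MAP kinase kinase, PUB ubiquitin ligase and VQ protein lists lie far to the right, and glucosinolate, aquaporin and lignin lists far to the left. Of kinase lists not drawn, 4 of 12 MAP kinases were called higher and 1 lower. Of 18 CBL-interacting kinases and CBLs, their calcium sensors, 5 were called higher and 2 lower.

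For the lists described below, counts of 0 to 3 genes in 1 direction moved by up to 2 genes when single libraries were left out. Of all genes, 23.8% were called higher and 14.9% lower. Members under 6 counts in every library are not in the table. Measured were 57 of 158 NLR genes, 30 of 45 cysteine-rich kinases, 32 of 65 lectin receptor kinases and 22 of 29 VQ genes. Shares and medians of lists whose genes are scarce at 0 µM can lean towards rises for that reason, by an amount that was not tested. Genes for receptors that detect pathogens or damage were frequently higher at 100 µM. NLR proteins are intracellular immune receptors, and 30 of the 57 measured were called higher and 0 lower, with a median log2 change of 2.53 (2.35 with undetected genes at their bounds). The NLR genes with the smallest p included AT1G66090, AT1G63750 and WRR4, which is known for resistance to white rust. AT1G66090 had 12.1, 7.52 and 19.7 CPM at 0 µM and 1621, 1896 and 1842 CPM at 100 µM, with no overlap and a change of 7.06 ± 0.29 (SE, adjusted p = 1.4e-14). AT1G63750 and WRR4 changed by 6.19 ± 0.26 and 6.16 ± 0.28 (SE). Summed over the list, NLR levels were 140.4 to 202 CPM at 0 µM and 3353 to 3854 CPM at 100 µM.

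Cysteine-rich receptor-like kinases carry an extracellular domain with conserved cysteines, and 21 of the 30 measured were called higher and 0 lower, with a median log2 change of 2.95 (2.78 with undetected genes at their bounds). EP1 and CRK28 changed by 2.77 ± 0.25 and 2.67 ± 0.26 (SE), and CRK31, with 1 count at 0 µM, was higher by 327 times (95% counting interval 58.1 to 12961). The fitted log2 change of CRK31, which depends on the prior count, was 7.89 and became 9.72 with 0 µM replicate 1 left out. The windows of the measured cysteine-rich kinases held TTGACT in 56.7% of cases, against 22.3% of all windows. The other W-box form, TTGACC, was in 13.3% of them, against 14.6% of all. Lectin receptor kinases, several of which sense extracellular nucleotides or bacterial molecules, were also frequently higher, and 24 of the 32 measured were called higher and 0 lower, with a median log2 change of 2.94 (2.52 with undetected genes at their bounds). LECRKA4.1 was measured at 17.2, 17.6 and 37.6 CPM at 0 µM and 897, 1093 and 1343 CPM at 100 µM. The doses did not overlap, and the change was 5.52 ± 0.29 (SE, adjusted p = 6.17e-13). LECRKA4.1 overlaps an annotated gene on the opposite strand. AT3G53810 and AT4G02410 changed by 5.54 ± 0.26 and 5.30 ± 0.30 (SE). Wall-associated kinases and their relatives include pectin-binding receptors, and 7 of the 9 measured were called higher and 0 lower, with a median log2 change of 3.24.

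All 5 measured genes of the Pep system were called higher. PROPEP genes encode precursors of peptides released on damage, and PEPR1 and PEPR2 encode their receptors. PEPR1, shown above with 2 W-box matches, had 9.85, 11.9 and 11.2 CPM at 0 µM and 1131, 1195 and 1166 CPM at 100 µM. Its levels rose without overlap by 6.74 ± 0.25 (SE, adjusted p = 3.26e-15). PROPEP1 was measured at 6.99, 11.3 and 8.94 CPM at 0 µM and 372, 346 and 337 CPM at 100 µM and changed by 5.32 ± 0.21 (SE, adjusted p = 1.19e-14). PROPEP2 and PEPR2 were not detected at 0 µM and were at least 7.98-fold and at least 8.45-fold higher at the floor over the group. PROPEP3, with few counts at 0 µM and overlapping libraries, was higher by 23.9 times (95% counting interval 6.14 to 206). Its fitted log2 change of 4.28, which depends on the prior count, was 3.54 with 0 µM replicate 1 left out and 6.97 with 0 µM replicate 3 left out. The median of the 5 log2 changes was 6.03, or 4.28 with the undetected genes at their bounds.

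MAP kinase cascades and calcium-dependent kinases carry signals onward from such receptors. Of the MAP kinase kinases and the kinases above them 16 of the 28 measured were called higher and 0 lower, with a median log2 change of 2.00 (1.75 with undetected genes at their bounds). MKK9, which activates MAP kinases in ethylene and camalexin responses, had 223, 203 and 325 CPM at 0 µM and 4896, 6077 and 5219 CPM at 100 µM. This was a change of 4.43 ± 0.22 (SE, adjusted p = 2.28e-13) without overlap. MAPKKK14 and MAPKKK19 changed by 7.38 ± 0.29 and 4.70 ± 0.25 (SE). Among 12 MAP kinases 4 were called higher and 1 lower, but 2 higher and 4 lower with total count scaling, where their median of 0.52 turned to −0.52. MPK3, a main immune MAP kinase, was measured at 2.54, 3.13 and 3.58 CPM at 0 µM and 109, 119 and 111 CPM at 100 µM with a change of 5.20 ± 0.25 (SE, adjusted p = 2.15e-13). Of calcium-dependent protein kinases 7 of the 15 measured were called higher and 0 lower, with a median log2 change of 1.70. CPK28, which limits immune signalling by acting on BIK1, changed by 5.79 ± 0.27 and CPK32 by 5.55 ± 0.53 (SE). The change of CPK32 was 4.76 with 0 µM replicate 1 left out.

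PP2C phosphatases, which remove phosphate from such kinases, showed 20 of 45 genes called higher and 4 lower, and their median log2 change of 0.62 turned to −0.41 with total count scaling. AT3G62260 and AT2G30020 were among those that rose (5.43 ± 0.22 and 6.60 ± 0.30, SE), and AT4G38520 fell (−2.52 ± 0.23). The number of PP2C genes called lower was 2 with 0 µM replicate 1 left out and 2 with 100 µM replicate 2 left out.

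Ubiquitin ligases mark proteins for degradation and belong to several families. Of the PUB ligases, with a U-box, 16 of the 21 measured were called higher and 0 lower, with a median log2 change of 4.05. PUB23, which restrains immune responses, had 32.4, 31.3 and 41.1 CPM at 0 µM and 1702, 2285 and 2322 CPM at 100 µM. It rose without overlap by 5.91 ± 0.25 (SE, adjusted p = 1.66e-14), and PUB17 and PUB19 changed by 5.01 ± 0.25 and 6.63 ± 0.36 (SE). The change of PUB19 was 7.29 with 0 µM replicate 1 left out. PUB23 also overlaps an annotated gene on the opposite strand. Of the ATL RING ligases 7 of 11 were called higher and 2 lower, with rises in CNI1 (ATL31, 6.50 ± 0.25), which acts in the carbon and nitrogen response, and in ATL2 (4.65 ± 0.22), and a fall in ATL8 (−2.45 ± 0.24). F-box proteins, the substrate receptors of SCF ligases, were closer to all genes, as 16 of 56 were called higher and 4 lower with a median of 0.25, which turned to −0.72 with total count scaling. TIR1, the auxin receptor, changed by −1.26 ± 0.20 (SE, adjusted p = 1.6e-05). The TIR1 call was lost at −0.54 under reference-gene scaling.

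Several transcription factor families had more genes higher than lower. For NAC factors 23 of the 50 measured were called higher and 3 lower, with a median log2 change of 1.25, and for R2R3 MYB factors 24 of the 41 measured were called higher and 3 lower, with a median log2 change of 1.86 (1.58 with undetected genes at their bounds). With single libraries left out 20 to 23 R2R3 MYB genes were called higher. NAC036 and ANAC087 changed by 6.52 ± 0.21 and 5.41 ± 0.25, and NAC050 and NAC1, which acts in auxin responses of roots, by −2.63 ± 0.36 and −2.36 ± 0.40 (SE). MYB77 and MYB73, which are close relatives, had changes of 6.01 ± 0.22 and 5.40 ± 0.21, and MYB51, an activator of indolic glucosinolate genes, of 4.65 ± 0.25 (SE). AS1, which sets leaf polarity, changed by −1.15 ± 0.33 (SE). The AS1 call was lost at −0.39 under reference-gene scaling and −0.85 with 100 µM replicate 1 left out.

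VQ proteins are short partners of WRKY factors, and 17 of the 22 measured were called higher and 1 lower, with a median log2 change of 3.78 (3.33 with undetected genes at their bounds). AT4G20000 was measured at 9.85, 9.40 and 20.1 CPM at 0 µM and 1871, 2172 and 2352 CPM at 100 µM. The doses did not overlap, with a change of 7.33 ± 0.34 (SE, adjusted p = 1e-13). Of DOF zinc finger factors 9 of the 18 measured were called higher and 0 lower, with a median log2 change of 1.38, led by DOF1 (6.43 ± 0.25, SE). The bHLH factors split, with 20 of 60 called higher and 7 lower, and their median of 0.19 turned to −0.86 with total count scaling. MYC2, the main bHLH factor of jasmonate signalling, had 20.7, 25.7 and 31.3 CPM at 0 µM and 846, 832 and 950.4 CPM at 100 µM and rose by 5.09 ± 0.23 (SE, adjusted p = 6.31e-14). An annotated gene overlaps MYC2 on the opposite strand, and its reads cannot be told apart from those of MYC2. SAUR genes, rapid auxin-responsive genes, had 9 of 20 called higher and 3 lower with a median of 1.08, but 5 higher and 5 lower with a median of 0.06 with total count scaling. AT1G56150 and SAUR36 moved oppositely (6.66 ± 0.24 and −2.82 ± 0.31, SE).

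The 3 measured CBF genes, which encode activators of cold-induced genes, were all called higher. CBF2 had 0, 0 and 1.34 CPM at 0 µM and 77.8, 72.5 and 94.2 CPM at 100 µM. CBF1 had 0.318, 0 and 0 CPM at 0 µM and 61.9, 52.9 and 52.1 CPM at 100 µM, with its 1 count at 0 µM in replicate 1, and CBF4 had 0, 0 and 0 CPM at 0 µM and 19.1, 20.1 and 23.4 CPM at 100 µM, with none at 0 µM. CBF2 was higher by 189 times (95% counting interval 64.3 to 921), CBF1 by 383 times (95% counting interval 68.2 to 15187), and CBF4 was at least 48.8-fold higher. Fitted log2 changes depend on the prior count here, and that of CBF2, 7.40, was 6.61 with 0 µM replicate 1 left out and 10.59 with 0 µM replicate 3 left out. That of CBF1, 8.15, was 9.98 with 0 µM replicate 1 left out. They were also called higher at 100 than at 10 µM, as 2.19% of all genes were, with log2 changes of 1.50 ± 0.26, 3.12 ± 0.27 and 2.70 ± 0.39 (SE).

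Among genes for mRNA decay the largest rises were in 2 deadenylase genes. Of 15 deadenylation and decapping genes 3 were called higher and 0 lower, but 2 higher and 5 lower with total count scaling. CAF1a, which shortens poly(A) tails, was measured at 40.4, 40.7 and 43.4 CPM at 0 µM and 4657, 4090.2 and 5619 CPM at 100 µM. It rose without overlap by 6.85 ± 0.24 (SE, adjusted p = 1.81e-15). CAF1b had 23.5, 30.1 and 46.1 CPM at 0 µM and 2050.2, 2165 and 1896 CPM at 100 µM and a change of 5.94 ± 0.24 (SE, adjusted p = 1.2e-14), and LSM1B, of the decapping complex, changed by 1.50 ± 0.24 (SE). The LSM1B call was lost at 0.45 with total count scaling. The tandem zinc finger gene CZF1 was also strongly higher, at 74.7, 71.5 and 109.6 CPM at 0 µM and 4978, 6123 and 5900.1 CPM at 100 µM, a change of 6.05 ± 0.24 (SE, adjusted p = 9.59e-15).

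Of the cytosolic and organellar translation factors 2 of 58 were called higher and 13 lower, with a median of −0.59 that turned to 0.19 under reference-gene scaling, where 8 were called higher and 1 lower. The elongation factor gene eEF-1Bb1 had 427, 329 and 249 CPM at 0 µM and 86.6, 73.5 and 54.4 CPM at 100 µM, a change of −2.23 ± 0.22 (SE, adjusted p = 2.15e-08). FBR12, a form of eIF5A, changed by −1.42 ± 0.18 and SVR3, a chloroplast elongation factor of the TypA class, by −1.55 ± 0.20 (SE). The FBR12 call was lost at −0.71 under reference-gene scaling. The SVR3 call was lost at −0.82 under reference-gene scaling. Of 34 aminoacyl-tRNA synthetases 3 were called higher and 1 lower, but 2 higher and 15 lower with total count scaling and 11 higher and 0 lower under reference-gene scaling. All 6 measured genes of nucleolar ribosome biogenesis, FIB1, FIB2, NUC-L1, NOP56, AT3G05060 and EBP1 (AT3G51800, given the symbol ATG2 in the annotation), missed the thresholds. Their log2 changes were −0.25 ± 0.18, −0.98 ± 0.27, 0.16 ± 0.19, 0.24 ± 0.19, −0.62 ± 0.40 and −0.74 ± 0.16 (SE). With total count scaling 4 of the 6 were called lower, and their median of −0.43 turned to 0.35 under reference-gene scaling.

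Histone genes were mostly higher. Of 41 measured, 29 were called higher and 2 lower, with a median of 1.44, and with total count scaling 11 were called higher and 5 lower with a median of 0.40. AT5G59970, a histone gene, had 54.7, 76.5 and 59.0 CPM at 0 µM and 399, 415 and 366 CPM at 100 µM. The doses did not overlap, and the change was 2.64 ± 0.19 (SE, adjusted p = 8.45e-11). AT3G27360 changed by 3.27 ± 0.24 (SE). The 2 called lower were both for the variant H2A.Z, which replaces H2A at gene starts. HTA9 was at 320.0, 298 and 309 CPM at 0 µM and 100.0, 116 and 101 CPM at 100 µM, a change of −1.55 ± 0.16 (SE, adjusted p = 4.81e-08), and HTA11 changed by −1.23 ± 0.28 (SE). The HTA9 call was lost at −0.82 under reference-gene scaling. The HTA11 call was lost at −0.52 under reference-gene scaling and −0.94 with 0 µM replicate 2 left out. Histone genes have near-identical copies, so reads may be split between them, and HTA9 overlaps a gene on the opposite strand. TGGGCC was present in 39.0% of histone windows and TGACGT in 29.3%, against 16.7% and 9.64% of all.

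Genes of the mitochondrial retrograde response, which are known to be switched on when mitochondrial respiration is disturbed, were higher at 100 than at 0 µM. In this list 11 of the 16 measured were called higher and 0 lower, with a median log2 change of 3.19 (2.83 with undetected genes at their bounds). BCS1, an AAA protein of the mitochondrial membrane, had 8.90, 11.3 and 11.6 CPM at 0 µM and 1427, 1629 and 1789.7 CPM at 100 µM and a change of 7.26 ± 0.25 (SE, adjusted p = 1.81e-15). CYP81D8, a cytochrome P450, had 15.6, 16.9 and 18.8 CPM at 0 µM and 809, 506 and 789.6 CPM at 100 µM and a change of 5.36 ± 0.24 (SE, adjusted p = 5.58e-14). AOX1A, the alternative oxidase that bypasses part of the respiratory chain and a member described after its values were seen, had 56.9, 37.0 and 56.3 CPM at 0 µM and 1481, 1319 and 1816 CPM at 100 µM, a change of 4.93 ± 0.24 (SE, adjusted p = 1.52e-13).

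Several of these genes were lower at 100 than at 10 µM. Against 10 µM, 0 higher and 8 lower of the 16 were called (2.19% and 2.48% of all genes), with a median of −1.44. Mean levels of CYP81D8 were 17.1, 1443, 1882 and 701 CPM at 0, 1, 10 and 100 µM, and the change from 10 to 100 µM was −1.43 ± 0.19 (SE, adjusted p = 5.19e-05). AT5G51440, a small heat shock protein gene also described after its values were seen, stood at 9.99, 307, 185 and 30.3 CPM in the same order, with a 10 to 100 µM change of −2.62 ± 0.28 (SE, adjusted p = 3.46e-06). DIC2, in contrast, had 28.9, 615, 6929.9 and 8289 CPM and a 10 to 100 µM change of 0.26 ± 0.19 (SE, adjusted p = 0.487). The 100 against 0 and 100 against 10 µM comparisons share the 100 µM libraries, so their values are given side by side only.

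**Figure D4:**
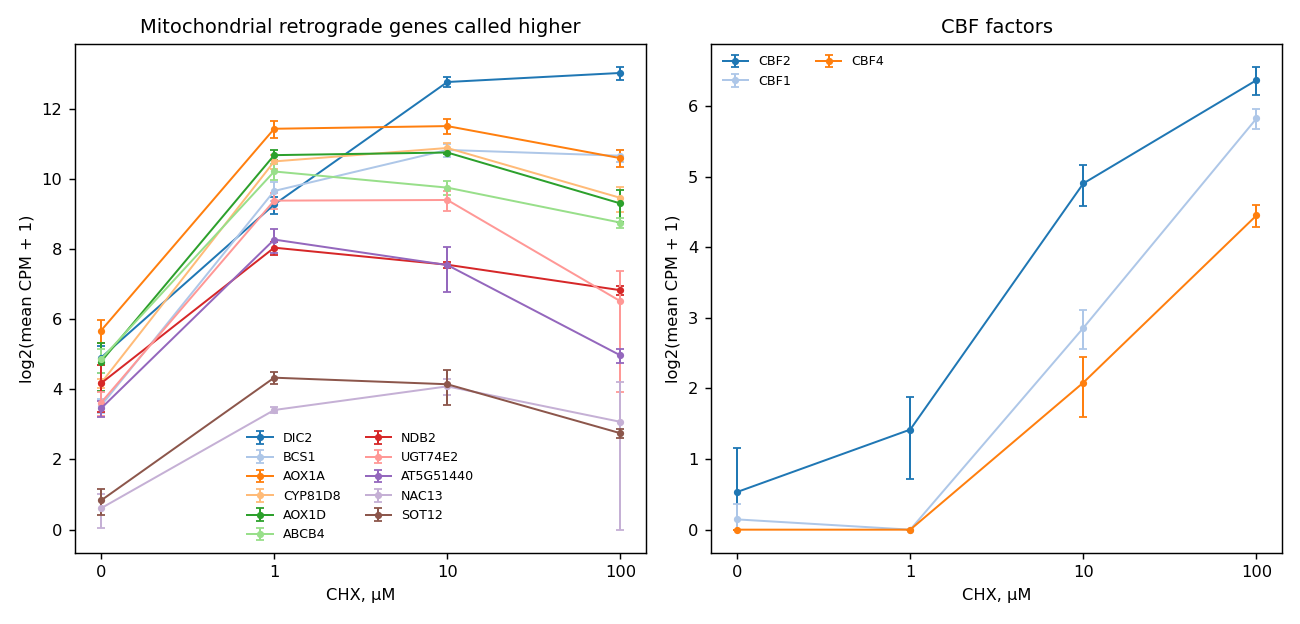
Mean level as log2(mean CPM + 1) (vertical axis) at each CHX dose (horizontal axis, evenly spaced) for mitochondrial retrograde genes called higher (left) and the 3 measured CBF genes (right), with error bars of 1 SD over 3 libraries. CYP81D8, AT5G51440 and UGT74E2 are lower at 100 than at 10 µM, while the CBF genes are highest at 100 µM.

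Detoxification families followed mixed courses. Of cytochromes P450 31 of 110 were called higher and 28 lower (22 to 25 lower with single libraries left out). Their median of −0.08 turned to 0.63 under reference-gene scaling. Of UDP-glycosyltransferases and related enzymes 26 of 94 were called higher and 19 lower, and their median of 0.36 turned to −0.58 with total count scaling. The shares of all genes were 23.8% higher and 14.9% lower. Against 10 µM the calls were 3 higher and 10 lower for P450s and 1 higher and 14 lower for glycosyltransferases. Of all genes 2.19% were called higher and 2.48% lower in that comparison. CYP706A2 and UGT73C6 rose from 0 to 100 µM (7.38 ± 0.26 and 5.09 ± 0.27, SE) and UGT88A1 fell (−2.76 ± 0.26). GSTU12 and ATGSTF13, glutathione transferases, changed by 4.50 ± 0.28 and 5.81 ± 0.32, while ERD9 and GSTF9 changed by −2.60 ± 0.45 and −2.33 ± 0.26 (SE). Of MATE efflux transporters 13 of the 31 measured were called higher and 4 lower, with a median log2 change of 0.41 that turned to −0.64 with total count scaling, and the number lower was 2 with 100 µM replicate 2 left out.

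The markers of singlet oxygen chosen by the study were all called higher, although the study may have chosen them from these samples, so they are not independent evidence. AT5G64870, with an SPFH domain, had 6.04, 5.02 and 13.0 CPM at 0 µM and 3350.1, 4447 and 4467 CPM at 100 µM and a change of 8.98 ± 0.37 (SE, adjusted p = 1.47e-14). BAP1, which restrains cell death, had 44.2, 33.9 and 87.2 CPM at 0 µM and 6246, 8495 and 7677 CPM at 100 µM and a change of 7.08 ± 0.33 (SE, adjusted p = 9.36e-14). AT5G13200 changed by 4.35 ± 0.26 (SE) and AT3G01830, with few counts at 0 µM, was higher by 81.7 times (95% counting interval 14.1 to 3282), with a fitted log2 change of 5.91 that was 7.74 with 0 µM replicate 1 left out and depends on the prior count. Of 4 superoxide markers 2 were measured. FER1, a ferritin that stores iron, missed the threshold at 0.60 ± 0.19 and AT4G21870 was called lower at −2.05 ± 0.69 (SE). FER1 lies across an annotated gene on the opposite strand, whose reads cannot be told apart from its own. The AT4G21870 call was lost at −1.29 under reference-gene scaling, −2.02 with libraries thinned to the smallest total and −1.72 with 100 µM replicate 3 left out.

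Cell surface and wall genes moved both ways. Of the XTH enzymes, which cut and rejoin xyloglucan, 5 of 23 were called higher and 6 lower (3 with 100 µM replicate 2 left out). Of all genes 23.8% were called higher and 14.9% lower. With total count scaling 4 XTH genes were called higher and 13 lower, and under reference-gene scaling 10 and 3. TCH4 had 0.636, 1.88 and 1.34 CPM at 0 µM and 54.0, 104 and 45.6 CPM at 100 µM, a change of 5.82 ± 0.43 (SE, adjusted p = 1.81e-10). XTR6 and XTH18 changed by 6.08 ± 0.24 and 5.80 ± 0.48, and XTH7 and XTH31 by −2.55 ± 0.22 and −2.31 ± 0.28 (SE). The change of XTH18 was 4.99 with 100 µM replicate 1 left out. Among expansins, which loosen walls, EXLA3 rose by 7.91 ± 0.27 (SE) and EXPA13 fell (−1.73 ± 0.45). The EXPA13 call was lost at −1.01 under reference-gene scaling. Trehalose phosphate phosphatase genes TPPD and TPPG were higher by 5.34 ± 0.26 and 3.54 ± 0.38, and TPS11, of the synthase family, was lower at −2.75 ± 0.61 (SE). The change of TPS11 was −2.04 with 0 µM replicate 1 left out.

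Aquaporin genes, for channels that carry water across membranes, were prominent among the falls. Of 26 measured, 0 were called higher and 19 lower, with a median of −1.75, and 11 were called lower under reference-gene scaling. PIP2B, of the plasma membrane, had 287, 300.3 and 341 CPM at 0 µM and 28.6, 23.2 and 15.2 CPM at 100 µM. It fell without overlap by 3.81 on the log2 scale (adjusted p = 1.19e-12). TIP2, of the vacuole membrane, had 3039, 2238 and 2195 CPM at 0 µM and 264, 299 and 237 CPM at 100 µM, and its change was −3.22 ± 0.20 (SE, adjusted p = 1.06e-11). PIP1A changed by −2.85 ± 0.19 (SE). Summed aquaporin levels were 8171 to 10181 CPM at 0 µM and 1909 to 1987 CPM at 100 µM.

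Phenylpropanoid and lignin genes were mostly called lower. Of 19 genes 13 were called lower and 1 higher, with a median of −2.03. CYP98A3, the hydroxylase of the lignin route, had 111, 106 and 136 CPM at 0 µM and 3.97, 3.53 and 2.92 CPM at 100 µM. Its change was −5.08 ± 0.28 (SE, adjusted p = 1.91e-12). HCT, which acts beside it, had 199.6, 238 and 316 CPM at 0 µM and 23.0, 18.1 and 16.4 CPM at 100 µM and changed by −3.72 ± 0.24 (SE, adjusted p = 1.75e-11), and ATCAD4, a late lignin enzyme, changed by −3.48 ± 0.33 (SE). CCR2 was the 1 called higher, with 21.3, 24.4 and 25.5 CPM at 0 µM and 1436, 1777 and 1859.9 CPM at 100 µM and a change of 6.16 ± 0.27 (SE, adjusted p = 3.18e-14). CYP98A3 and CCR2 each overlap an annotated gene on the opposite strand, whose reads cannot be told apart from theirs. Of flavonoid genes 3 of 8 were called lower, TT4, F3H and FLS1, with a list median of −0.63 that turned to 0.11 under reference-gene scaling. TT4, chalcone synthase, changed by −1.96 ± 0.23 (SE), and F3H and FLS1 by −1.33 ± 0.47 and −1.77 ± 0.68. The F3H call was lost at −0.61 under reference-gene scaling, −1.14 with 0 µM replicate 3 left out, −0.98 with 100 µM replicate 1 left out and −1.34 with 100 µM replicate 2 left out. The FLS1 call was lost at −1.86 with DESeq2, −1.10 under reference-gene scaling, −1.76 with only the 6 libraries compared, −2.33 with libraries thinned to the smallest total, −1.38 with 0 µM replicate 2 left out, −1.73 with 0 µM replicate 3 left out, −2.01 with 100 µM replicate 2 left out and −1.44 with 100 µM replicate 3 left out.

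Glucosinolates are defence compounds of the cabbage family. Aliphatic glucosinolates derive from methionine, and all 10 measured genes of their synthesis were called lower, with a median of −1.69 (4 lower under reference-gene scaling). With any 1 library left out 9 were called lower. MAM1, which extends methionine chains, had 41.9, 46.4 and 69.8 CPM at 0 µM and 12.7, 19.6 and 12.9 CPM at 100 µM, a change of −1.78 ± 0.27 (SE, adjusted p = 1.23e-05). CYP83A1 and MYB28, the latter an activator of these genes, changed by −2.20 ± 0.23 and −1.71 ± 0.37 (SE). The MYB28 call was lost at −0.94 under reference-gene scaling. Of indolic genes, which derive from tryptophan, 7 of 19 were called higher and 1 lower with a median of 0.86, which turned to −0.17 with total count scaling. PEN2, a myrosinase of the indolic route, and PEN3, a transporter, changed by 2.48 ± 0.21 and 2.59 ± 0.21 (SE).

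Calvin cycle, lipid transfer and tubulin genes held further falls. Of Calvin cycle genes 0 of 19 were called higher and 11 lower, with a median of −1.46 (5 lower under reference-gene scaling). CP12-2, a regulator of the cycle, had 385, 516 and 476 CPM at 0 µM and 40.5, 36.8 and 28.1 CPM at 100 µM. It changed without overlap by −3.71 ± 0.32 (SE, adjusted p = 3.03e-09). PRK changed by −1.65 ± 0.18 (SE). The PRK call was lost at −0.92 under reference-gene scaling. RBCS1A, a Rubisco subunit, missed the threshold at −0.70 ± 0.17 (SE), and RBCS genes have near-identical copies. Of lipid transfer proteins 3 of 44 were called higher and 17 lower with a median of −0.75, but 10 higher and 8 lower under reference-gene scaling. LTP2 had 824, 1399 and 1289 CPM at 0 µM and 167, 130.5 and 128 CPM at 100 µM, a change of −3.05 ± 0.27 (SE, adjusted p = 5.02e-09). Of 22 actins and tubulins 8 were called lower and 0 higher, and TUB2, TUB6 and TUB7 changed by −1.41 ± 0.17, −1.41 ± 0.20 and −1.56 ± 0.23 (SE). Under reference-gene scaling these 3 calls were lost at −0.67, −0.66 and −0.81.

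**Figure D5:**
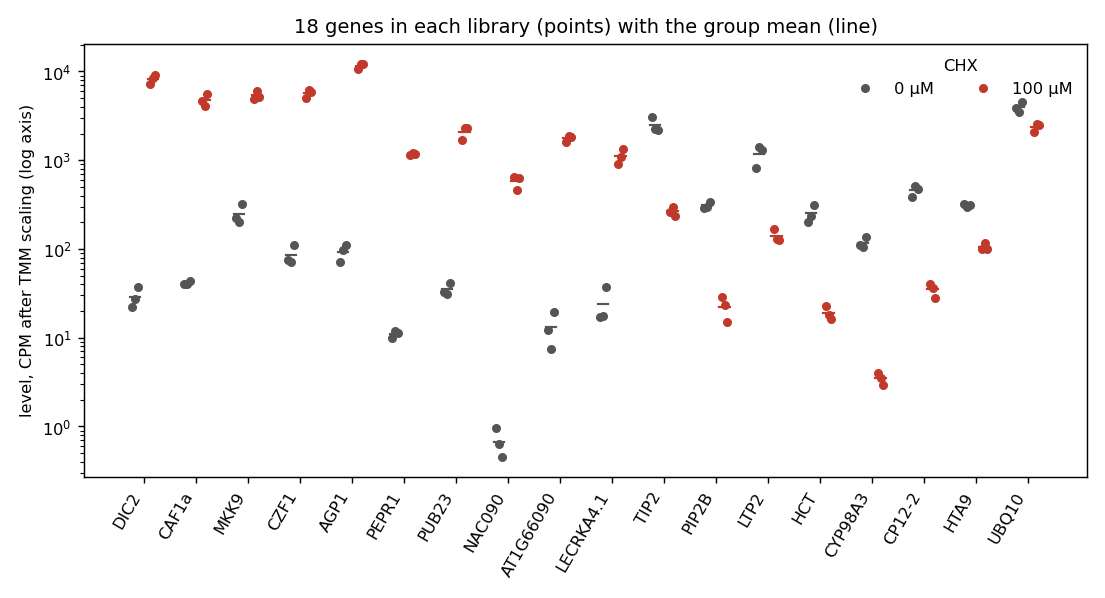
Level in CPM after TMM scaling (vertical axis, log scale) of 18 genes in each of the 3 libraries at 0 µM (grey points) and 3 at 100 µM CHX (red points), with lines at group means. The libraries of both doses are separate for all genes drawn, and DIC2, CAF1a, PEPR1 and NAC090 rise while PIP2B, CYP98A3 and CP12-2 fall.

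Genes of light, energy and oxygen responses were called lower more often than higher. Of light signalling genes 2 of 15 were called higher and 7 lower, with a median of −0.77 that turned to 0.03 under reference-gene scaling, where 4 were called higher and 2 lower. HY5, a factor that promotes light-grown development, changed by −1.36 ± 0.21, PHYB by −1.94 ± 0.31 and the shade gene HB-2 by 3.62 ± 0.29 (SE). The HY5 call was lost at −0.66 under reference-gene scaling. The photoreceptor gene CRY1 changed by −1.38 ± 0.18 (SE). The CRY1 call was lost at −0.67 under reference-gene scaling. Carbon starvation genes had 6 of 8 called lower, and 3 with 0 µM replicate 1 left out. DIN10 changed by −1.86 ± 0.24 and BCAT-2 by −2.08 ± 0.26 (SE).

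Calls of hypoxia response genes depended on single libraries. Of 17 measured 8 were called lower and 1 higher, but 10 were called lower with 0 µM replicate 1 left out, 10 with 100 µM replicate 1 left out, 4 with 0 µM replicate 3 left out and 5 with 100 µM replicate 2 left out. ADH1, alcohol dehydrogenase of fermentation, had 53.7, 208 and 263 CPM at 0 µM and 68.3, 38.8 and 33.9 CPM at 100 µM. The doses overlapped, since 0 µM replicate 1 was low, and its change was −1.91 ± 0.46 (SE, adjusted p = 0.00155). ERF71 was the 1 called higher, with 2.86, 4.39 and 6.26 CPM at 0 µM and 186, 145 and 171 CPM at 100 µM and a change of 5.24 ± 0.25 (SE, adjusted p = 1.43e-13). ADH1 overlaps an annotated gene on the opposite strand.

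Root markers included 5 of 8 called lower, and 3 with 0 µM replicate 2 left out. CASP1, of the Casparian strip, had 28.3, 23.2 and 19.2 CPM at 0 µM and 6.35, 7.05 and 4.09 CPM at 100 µM and changed by −2.01 ± 0.36 (SE, adjusted p = 9.07e-05). Clock genes had 5 of 21 called higher, close to the 23.8% of all genes, and 1 lower, beside 14.9% of all genes. Their median of −0.18 turned to 0.59 under reference-gene scaling, and with total count scaling 3 were called higher and 11 lower. BOA, a relative of the clock factor LUX, had 32.1, 16.9 and 17.9 CPM at 0 µM and 166, 198 and 202 CPM at 100 µM and rose by 3.04 ± 0.23 (SE, adjusted p = 3.7e-10), and FKF1 changed by 2.34 ± 0.25 (SE). Both overlap an annotated gene on the opposite strand. LCL1, a MYB-like clock factor, changed by −1.51 ± 0.26 (SE). The LCL1 call was lost at −0.77 under reference-gene scaling.

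Most organelle-encoded transcripts were not called. MARS-seq reads polyadenylated transcripts, so organelle RNA without a poly(A) tail may be missed here. Of 55 plastid-encoded transcripts 3 were called higher (1 with 100 µM replicate 1 left out and 1 with 100 µM replicate 2 left out) and 2 lower, and of 19 from mitochondria 1 was called higher and 0 lower. With total count scaling 0 and 0 were called higher and 13 and 5 lower. The 2 plastid transcripts called lower rested on 1 library. ATCG01210 had 729.9, 0.627 and 0 CPM at 0 µM and 0.794, 0.504 and 0.585 CPM at 100 µM, and ATCG00600 had 194, 0 and 0 CPM at 0 µM and 0, 0 and 0 CPM at 100 µM. With 0 µM replicate 1 left out their log2 changes were 1.05 and 0.00, and DESeq2 did not call either.

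Relative to 10 µM, 282 genes (2.19%) were called higher and 320 (2.48%) lower at 100 µM, 4.66% in all. Of the genes called higher at 100 against 0 µM, 238 were also higher than at 10 µM, 117 were lower than at 10 µM and 2717 were not called. Of those called lower, 103 were also lower than at 10 µM and 3 were higher. The 3 were AT5G20820, AT1G73120 and UGT72B3, named after their values were seen. AT5G20820, a SAUR gene, had 24.5, 25.1 and 34.9 CPM at 0 µM and 5.56, 10.1 and 2.34 CPM at 100 µM and a mean of 1.14 CPM at 10 µM. Its changes were −2.18 ± 0.36 from 0 and 2.32 ± 0.54 from 10 µM (SE). The change of AT5G20820 was −2.89 with 100 µM replicate 2 left out. With 100 µM replicate 1 left out the genes called lower than at 10 µM numbered 592, and with 10 µM replicate 2 left out those called higher numbered 179.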

How the data were processed

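The authors used cutadapt 1.8.3 for trimming, STAR for alignment with Araport11 models and HTSeq for counting, and kept genes with at least 5 reads in 1 sample. The deposited whole-number counts, named as without a filter on molecular identifiers, were analysed for 12905 genes. The 24 other columns per sample, with normalized and log2 values of the authors, and the authors' own comparisons (fold changes and p-values) were not used. RefSeq annotation of TAIR10.1 matched 12831 identifiers, and 74 had no match.

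Counts were fitted in edgeR 4.0.16 (R 4.3.3) by quasi-likelihood with TMM scaling and 1 mean per dose over 12 libraries. Log2 changes are given ± SE. Floors are 3 counts over a group, and ratios with 1 to 3 counts at 0 µM carry 95% exact intervals, both for counting error only. DESeq2 1.42.0 and other scalings, filters, thresholds and libraries left out were alternatives. A run on simulated counts was also made, and no result given here is taken from it. That run is not used as evidence on the choice of scaling or on genes near the floor. The 79 gene lists and the members were chosen with earlier results of these data known. Named genes were the 10 largest non-overlapping rises and falls with at least 10 CPM, the 5 most abundant called genes near the floor, the 10 genes with the most counts at each dose, up to 3 called genes per list and direction with the smallest p, and every member of lists of up to 8 genes. The study ties the record of these files to another of its experiments, and the labels, which name CHX doses, were followed.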

Additional observations from a re-analysis of the deposited data

How the results depend on the processing

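Against 3072 genes called higher and 1927 lower at 100 against 0 µM, RLE scaling gave 3064 and 1953, DESeq2 2925 and 1739, the replicate block 3069 and 1915, and leaving out each library in turn 2887 to 3034 and 1713 to 1996. Scaling to the reference genes gave 4739 and 589, total counts gave 1846 and 5634, and a 4-fold threshold left 593 called lower. Same-numbered replicates of 0 and 100 µM correlated at 0.215, −0.0452 and 0.3 in their deviations, and those of 10 and 100 µM at 0.173, 0.142 and 0.0514. Differently numbered pairs ran from −0.336 to 0.138. Not every same-numbered pair was over 0.1, so the numbers were not taken as pairing the samples for the replicate block. At 100 against 10 µM the counts of 282 and 320 were 1783 and 126 with the reference genes, 142 and 498 with total counts, 631 and 484 with no fold threshold and 29 and 82 with a 4-fold threshold. At adjusted p under 0.01 207 were lower. Leaving out each library gave 179 to 338 higher and 226 to 592 lower, and the replicate block 294 and 376. Among named genes that were called, changes turned in ATMPK8 (−0.027 with total counts) and, without 0 µM replicate 1, in ATCG01210 (1.05) and ATCG00600 (0.00). The last 2 ranged from −9.13 and −10.89 when each library was left out. Less that of all genes, the median turned to −0.20 with a filter of 10 counts, −0.30 with filterByExpr, −0.15 when thinned, −0.07 without 0 µM replicate 1 and −0.23 without 100 µM replicate 3 (0.23 at most) for CIPK and CBL genes. It turned to 0.095 for clock genes without 0 µM replicate 3 (−0.36 at least) and to −0.053 for mitochondrion-encoded transcripts without 0 µM replicate 1 (0.38 at most). For pectin lyases it was −0.0045 when thinned and −0.0048, −0.018 and −0.026 without 100 µM replicates 1, 2 and 3 (0.24 at most). The cause was not tested. Of 5530 named-gene values under alternatives 5306 kept their call or their lack of one. Turns of direction between uncalled values are counted among these. Genes near the floor are limited by depth.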
